A study of Zea mays with 144 samples.

Results

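The comparison set anthers holding microspores against anthers in meiosis in the maize inbred line Ky21. The microspore stages were early microspore, mid-microspore and mid/late microspore, the last of them a mixed stage, and the meiotic stages were meiocyte, dyad/tetrad, also mixed, and tetrad. Pools were assigned by the stage in their labels, which was judged by light microscopy, and all 24 RNA pools of the series entered, 12 on each side. Each stage was represented by 4 pools, 2 from upper and 2 from lower florets of the spikelet. No treatment or genotype differed between the pools.

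A pool joined RNA from whole anthers of 1 to 4 individuals, at 8 to 20 anthers per tassel, and the RNA was amplified before labelling. The pools were hybridised in pairs to 48 slides carrying 12160 spotted cDNA features, each slide scanned at 3 intensities. Pools numbered 1 in the labels form one set of 12 and those numbered 2 the other, and each slide joined pools of 1 set. A pool value below is the log2 signal of a feature in a pool minus its average over the whole set. Such values can be compared between pools but not between features. In bulk anther RNA, fewer cells of a type and less RNA per cell cannot be told apart.

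In a maize anther, meiocytes lie in locules lined by the tapetum, a nurse layer that feeds the developing spores and supplies the materials of their wall. Meiosis gives a dyad and then a tetrad of spores held in callose, and the callose is digested to free the microspores. The free microspore enlarges, becomes vacuolate and builds its outer wall, the exine, while the tapetum declines, and starch is laid down later, as pollen matures.

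The labels give each pool's dye, but no source says which dye is on top of the deposited ratio. For slides between stages Cy5 was taken as the numerator, a reading with a thin basis. The medians of the 4 meiosis features were then 0.61, -0.40 and -0.20 at meiocyte, dyad/tetrad and tetrad, relative to their meiotic mean. At early, mid- and mid/late microspore they were -0.30, -0.21 and -0.12, so that only the meiocyte stage stood apart. These features are no independent evidence of the direction. Directions therefore rest on this reading and are not settled, and turning the sign would exchange every higher and lower below. The log base of the ratios is not stated either and was read as natural. Another base would multiply every difference by 1 constant and leave the calls as they are.

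Anthers at the 2 sides differed broadly. Of the 12160 features, 6192 were called, which is 50.9%, at an adjusted p under 0.05 in limma with terms for set and floret. The microspore stages were higher in 3074 features (25.3% of all) and lower in 3118 (25.6%), with a median fold of 1.44 among those called. A difference of 2-fold or more was seen in 863 called features, 399 of them higher and 464 lower in the microspore stages. Across features, the differences of set 1 and set 2 correlated at r = 0.794, as a description over features that share slides.

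The pools of a side share slides, which makes the p-values of this fit too small. Were slide error the only error, the variance of the difference would be 2.7 times what the fit takes it to be. The stage slides of each set and floret, taken alone, give 4 differences that share no slide, and with these 4 as the unit limma called 5070 features (41.7%), 2499 higher and 2571 lower in the microspore stages. Of the 6192 features, 77.1% were called in both, and 94.2% of the 5070. Named features that pass in the pools but not with the 4 differences are given below with the adjusted p of the 4 differences. In the fit over pools, the spread between the stages of a side counts as error, together with that between pools of 1 to 4 plants. With the 4 differences as the unit, p-values measure the spread between combinations of set and floret. Each SE below is that of the fit over pools.

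The 12 microspore pools lay wholly above the 12 meiotic pools in 194 features (1.6% of all) and wholly below them in 321 (2.64%). Of these 515 features, 202 also varied between the 3 microspore stages.

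The stages of the 2 sides were unequal in how much they varied among themselves. Within the microspore side, 4114 features (33.8%) varied between early, mid- and mid/late microspore pools, against 535 (4.4%) between the stages of the meiotic side, in limma F tests of stage at an adjusted p under 0.05. The pool values in these tests share slides too, so that their p-values are not exact, and no test without shared slides was run. The median absolute difference between stage means was 0.33 from early to mid/late microspore and 0.21 from meiocyte to tetrad, on the log2 scale. Of the 6192 features called between the sides, 2336 varied within the microspore side, which is 37.7%, and 241 within the meiotic side, which is 3.89%, while 3763 varied on neither. A further 1778 features were not called between the sides but varied within the microspore side. A mean over the microspore stages thus joins pools that differed from each other in a large share of features. The count within the meiotic side was 1289 with the slides between florets turned by the dyes in the labels, and 186 without the lower floret meiocyte pool of set 1.

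The change between the sides fell at different steps for higher and lower features. For each called feature, the step between neighbouring stages with the largest change in its direction was taken from the stage means. Among features lower in the microspore stages, 56% had it between tetrad and early microspore and 25.2% between early and mid-microspore. Among features higher in the microspore stages, 42.1% had it between tetrad and early microspore and 36.2% between early and mid-microspore, and a further 12% between mid- and mid/late microspore. The steps within meiosis held 4.49% to 8.53% of either group. The 8 slides that join the sides carry 60% of the weight of the difference, and 4 of the 8 set tetrad against early microspore, so that this comparison favours the step at the boundary.

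**Figure D1:**
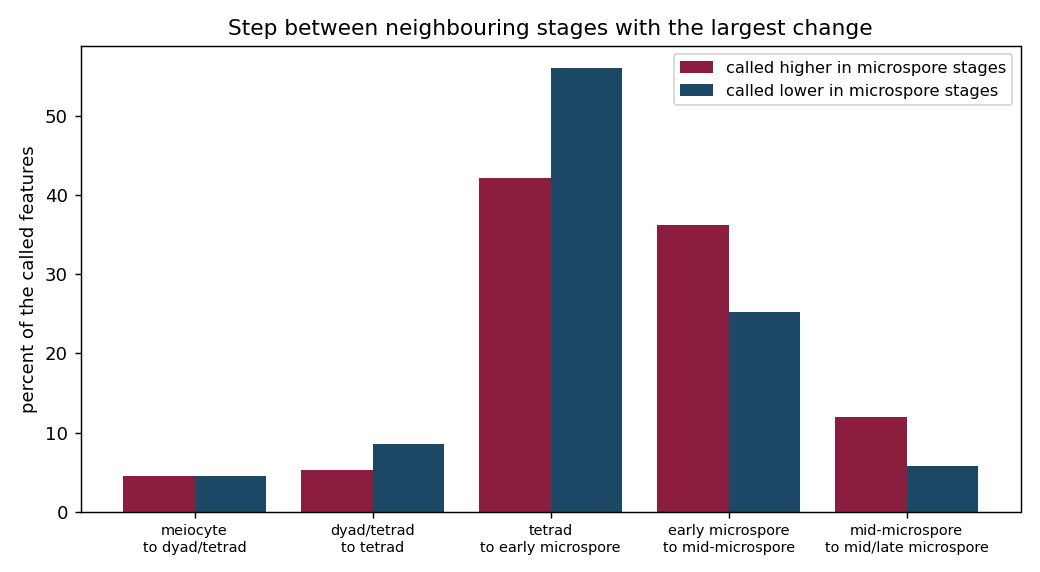
Percent of the called features (vertical axis) whose largest change in the direction of the call lay at each of the 5 steps between neighbouring stages (horizontal axis), for 3074 features higher and 3118 lower in the microspore stages. The step from tetrad to early microspore holds 42.1% of the higher and 56% of the lower features, and the step from early to mid-microspore 36.2% and 25.2%.

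By the early microspore stage the features called higher had a median of 0.35 above their meiotic mean on the log2 scale, and 0.56 over the mid- and mid/late stages. The features called lower had a median of -0.47 at the early microspore stage and -0.57 over the later stages. In 1335 of the 3074 higher features (43.4%) the early microspore mean had covered less than 50% of the distance to the later microspore stages, and in 879 of the 3118 lower ones (28.2%). Since the call chose these features, the values are given as a description.

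Among the 30 named genes with the largest changes, 15 in each direction, this unevenness was plain. The largest step lay between early and mid-microspore for 13 of the 15 higher genes, and between mid- and mid/late microspore for the other 2. Of the 15 lower genes, 8 had it between tetrad and early microspore and 7 between early and mid-microspore. The 30 were chosen for 1 sign in all 4 combinations of set and floret, so that this shared sign is no result.

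**Figure D2:**
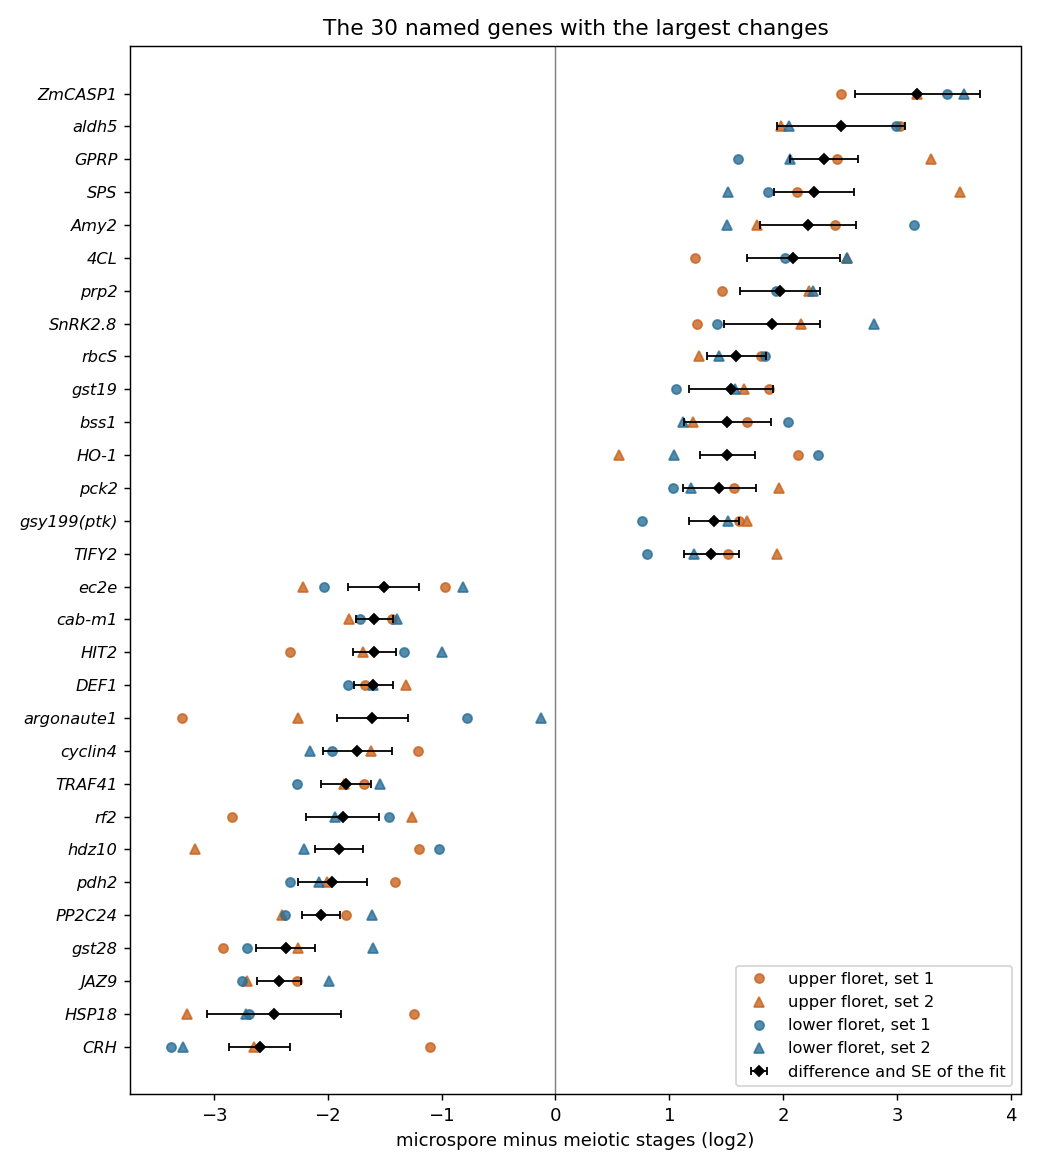
Difference between microspore and meiotic stages on the log2 scale (horizontal axis) for the 30 named genes with the largest changes (vertical axis). Diamonds with bars are the difference and its SE over 24 pools, and coloured points are the 4 differences of set and floret from the stage slides alone. The genes were chosen for 1 sign in all 4 combinations, and within it argonaute1 spreads from -3.28 to -0.13.

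The widest rise among the named genes was that of ZmCASP1. Its pool values had a lowest of -1.56, a median of 2.02 and a highest of 3.80 in microspore pools, against -3.06, -1.45 and -0.33 in meiotic pools. The difference was 3.18 (SE 0.55, adjusted p = 5.7e-05), and the sides overlapped only through early microspore pools. Stage means ran -2.48, -1.08, -1.21, -0.59, 1.97 and 3.39 through the 6 stages, so that the early microspore pools stood near the tetrad pools and the rise came after them.

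A gene of aldehyde dehydrogenase, an enzyme class that oxidises aldehydes to acids, gave a late switch. The aldh5 pool values had a lowest of -1.53, a median of 1.92 and a highest of 3.78 in microspore pools, against -1.85, -1.19 and -0.88 in meiotic pools, a difference of 2.51 (SE 0.56, adjusted p = 0.000802). Early microspore pools averaged -1.28 ± 0.22 (SD, n = 4), level with the tetrad mean of -1.42 ± 0.35, whereas mid-microspore pools averaged 2.10 ± 0.56. The 4 slides that set tetrad directly against early microspore gave -0.13 to 0.20 on the log2 scale, and those that set mid/late microspore against meiocyte gave 3.32 to 5.27. A second feature of aldh5 was higher by 1.71 (SE 0.33, adjusted p = 0.00018). With the mixed stages left out, the first feature was no longer called (difference 1.66, adjusted p = 0.0566).

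**Figure D3:**
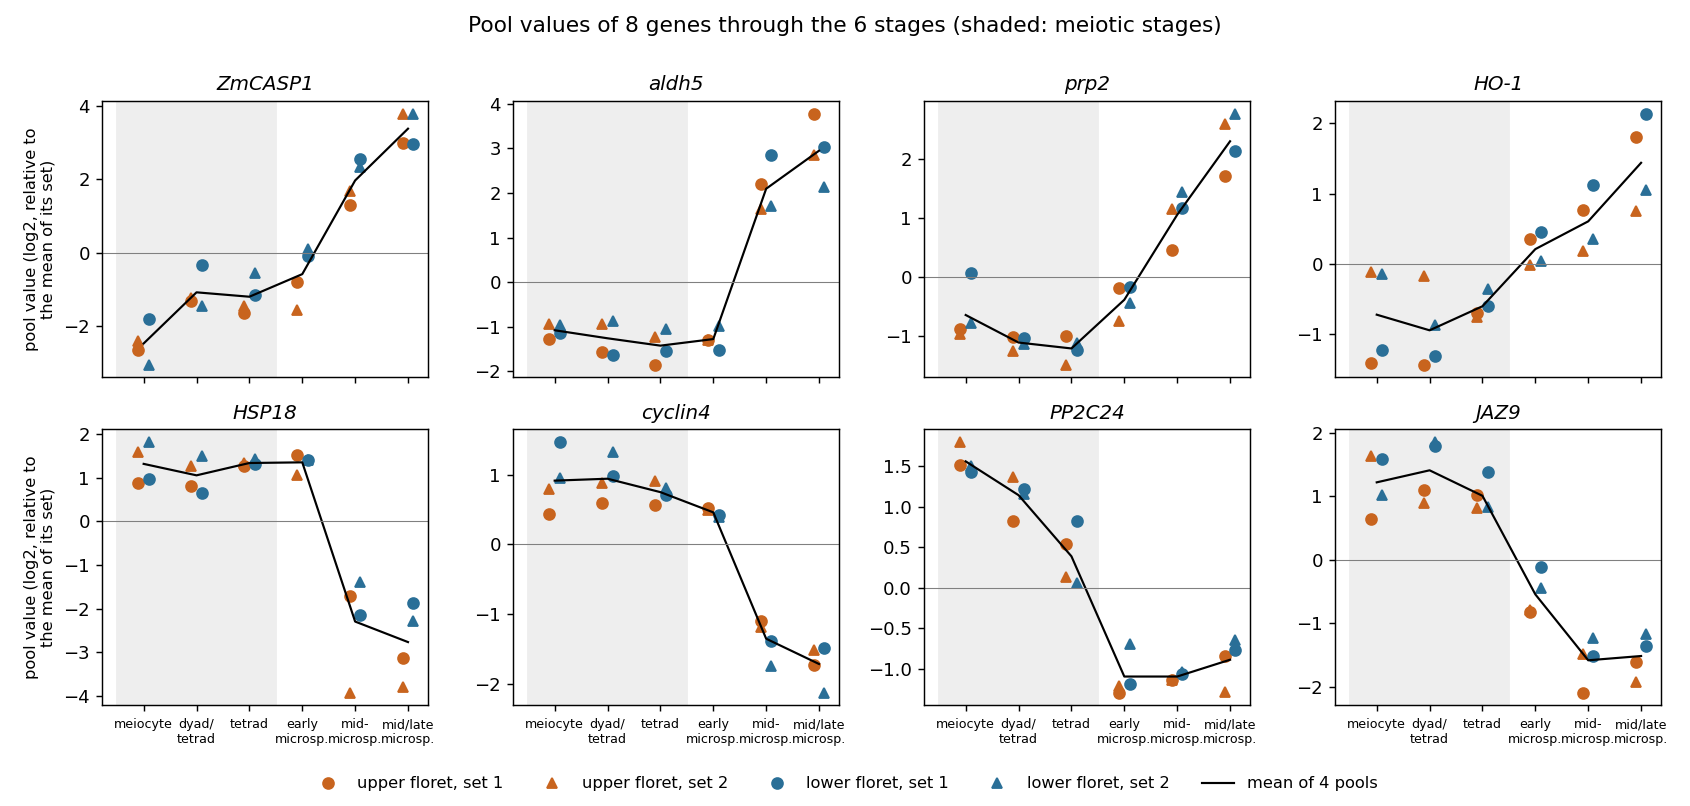
Pool values of 8 genes (vertical axes, log2 relative to the mean of the set) through the 6 stages in order (horizontal axes), with meiotic stages shaded. Each point is a pool, coloured by floret and shaped by set, and the line joins the means of 4 pools. The aldh5, HSP18 and cyclin4 panels turn after the early microspore stage, and the PP2C24 panel turns before it.

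Genes of sugar metabolism were among the widest rises. SPS, for sucrose-phosphate synthase, which makes the precursor of sucrose, had a median of 1.73 in microspore pools, range -1.54 to 2.07, against -1.05, range -1.68 to -0.67, in meiotic pools, a difference of 2.27 (SE 0.35, adjusted p = 1.66e-05). Amy2, listed in RefSeq with a beta-amylase synonym and thus tied to starch breakdown, was higher by 2.22 (SE 0.42, adjusted p = 0.000143). Both genes overlapped between the sides, with their early microspore means at -0.25 and -0.52, and mid/late microspore means of 1.97 and 2.31. The gene pck2 was higher by 1.44 (SE 0.32, adjusted p = 0.000747), and its stage means peaked at 1.90 in mid-microspore pools and were 0.27 in mid/late ones.

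4CL, the ligase that activates hydroxycinnamic acids for lignin, flavonoids and wall phenolics, had 3 features, which were higher by 2.09, 1.62 and 0.77 (largest adjusted p = 0.00256). Its most changed feature had a median of 0.61 in microspore pools, range -0.51 to 3.14, against -1.42, range -2.82 to 1.03, in meiotic pools. Its values peaked in mid-microspore pools, at a mean of 2.01 ± 1.19, and the spread within stages was wide on both sides.

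GPRP was higher by 2.36 (SE 0.30, adjusted p = 1.79e-06) and prp2, for a proline-rich protein, by 1.97 (SE 0.35, adjusted p = 8.62e-05). The prp2 stage means were lowest at tetrad, -1.21 ± 0.20, and reached 2.29 ± 0.47 in mid/late microspore pools (SD, n = 4 each).

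HO-1, for a heme oxygenase, which opens the heme ring, was the 1 gene of the 15 higher ones whose sides did not overlap. Its microspore pools had a lowest of -0.01, a median of 0.60 and a highest of 2.14, against -1.43, -0.72 and -0.11 in meiotic pools. The difference was 1.51 (SE 0.24, adjusted p = 2.21e-05). It was larger in set 1, at 2.13 and 2.31 in upper and lower florets, than in set 2, at 0.56 and 1.04, and the second HO-1 feature was higher by 1.45 (adjusted p = 2.05e-06).

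Among the other higher genes, SnRK2.8, for a kinase of the family that acts in abscisic acid and osmotic stress signalling, rose by 1.90 and rbcS, for the small subunit of Rubisco, by 1.59. The glutathione transferase gene gst19 was higher by 1.54, bss1 by 1.51, gsy199(ptk) by 1.39 and TIFY2, of the TIFY family of regulators, by 1.37. A second gsy199(ptk) feature differed by 0.03 (adjusted p = 0.759). Adjusted p-values of the 6 genes' most changed features lay between 2.43e-05 and 0.00204. With the mixed stages left out, SnRK2.8 (1.30, adjusted p = 0.0524) and bss1 (0.70, adjusted p = 0.0882) were no longer called. Without set 2, the calls of SnRK2.8 (1.33, adjusted p = 0.117), gst19 (1.47, adjusted p = 0.0872) and pck2 (1.30, adjusted p = 0.0576) ended, and without set 1 that of bss1 (1.17, adjusted p = 0.0953). In lower florets alone, SnRK2.8 (adjusted p = 0.068), gst19 (0.132), pck2 (0.107), bss1 (0.0582) and TIFY2 (0.0585) were not called. Fits of 1 floret, here and below, took its pool values from the solution over all slides of a set. Slides of the other floret and between florets therefore enter them. For SnRK2.8 the lower floret fit gave 1.60, where the lower floret stage slides alone gave 1.42 and 2.80 in sets 1 and 2. The 3 called features listed as rbcS were higher by 1.59, 1.31 and 1.05. The feature at 1.31 is not assigned to the same gene as the others, and in it all 12 microspore pools lay above all 12 meiotic pools.

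Several genes dropped at the boundary itself. PP2C24, for a type 2C protein phosphatase, a class that includes negative regulators of abscisic acid signalling, had a highest of -0.65, a median of -1.10 and a lowest of -1.30 in microspore pools, against 1.80, 1.19 and 0.06 in meiotic pools. The sides did not overlap, and the difference was -2.06 (SE 0.17, adjusted p = 6.74e-09). Its values also declined within meiosis, with means of 1.56, 1.14 and 0.39 from meiocyte to tetrad (adjusted p = 0.00593 within the meiotic side), and were flat afterwards, at -1.10, -1.10 and -0.89.

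JAZ9, of the family of repressors of jasmonate responses, had a highest of -0.12, a median of -1.30 and a lowest of -2.10 in microspore pools, against 1.86, 1.06 and 0.64 in meiotic pools. The sides did not overlap, and the difference was -2.43 (SE 0.19, adjusted p = 2.27e-09). The early microspore mean was -0.54 and the later means -1.58 and -1.52, so that most of the drop lay at the boundary and the rest at the next step.

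hdz10, for a homeodomain-leucine zipper transcription factor, had a median of -0.87 in microspore pools, range -1.66 to -0.27, against 0.74, range 0.28 to 1.67, in meiotic pools. The sides did not overlap and the difference was -1.90 (SE 0.21, adjusted p = 1.84e-07). Its 4 differences were uneven, at -1.20 and -1.02 in set 1 and -3.17 and -2.21 in set 2, for upper and lower florets in turn.

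CRH, listed with a calreticulin synonym and so a chaperone of the endoplasmic reticulum, had the largest fall among the named genes, -2.60 (SE 0.27, adjusted p = 9.35e-08). Microspore pools had a median of -1.38, range -2.55 to 0.24, against 1.38, range 0.51 to 1.95, in meiotic pools, and the sides did not overlap. CRH means were 1.14 at tetrad, -0.37 at early and -1.97 at mid-microspore, so that the fall was shared between the boundary and the next step. Its size differed between scans, at -1.38 in the low, -4.05 in the medium and -2.37 in the high scan.

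The glutathione transferase gene gst28 and DEF1, listed with a defensin synonym, fell without overlap too. For gst28 the microspore median was -1.27 and the highest pool -0.23, against 1.21 and a lowest of -0.08 in meiotic pools (difference -2.37, SE 0.26, adjusted p = 1.69e-07). A second feature assigned to gst28 went the other way, at 0.90 (adjusted p = 0.000151), so that no direction can be given for the gene as a whole. For DEF1 the microspore median was -0.81, range -1.35 to -0.11, against 0.78, range -0.03 to 1.61, in meiotic pools, and its 2 features were lower by differences of -1.60 and -1.08 (adjusted p = 1.43e-07 and 7.41e-08).

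TRAF41 had a median of -1.09 in microspore pools, range -1.64 to 0.17, against 0.99, range 0.22 to 1.25, in meiotic pools, again without overlap (difference -1.84, SE 0.22, adjusted p = 7.07e-07). Its means were 0.57 at tetrad, -0.04 at early and -1.41 at mid-microspore, so that its largest step came after the boundary. HIT2 and the chlorophyll a/b-binding protein gene cab-m1 both had differences of -1.59 (adjusted p = 5.73e-07 and 5.86e-08) with some overlap. A second cab-m1 feature was called at -0.37 over the pools (adjusted p = 0.0109) but not with the 4 differences as the unit (adjusted p = 0.0682). The argonaute1 feature, of the protein family that carries small RNAs, had a difference of -1.61 (SE 0.31, adjusted p = 0.000181), but upper florets gave -3.28 and -2.26 and lower florets -0.78 and -0.13. With the 4 differences as the unit it was not called (adjusted p = 0.064).

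A second group of lower genes had most of its fall after the early microspore stage. HSP18, for a small heat shock protein, had stage means of 1.32, 1.06 and 1.34 in meiosis, 1.35 ± 0.21 in early microspore pools, and then -2.29 ± 1.13 and -2.77 ± 0.87 (SD, n = 4 each). Its microspore pools therefore ran from -3.93 to 1.53, with a median of -1.78, against 0.65 to 1.82 and a median of 1.28 in meiotic pools. The difference between the sides was -2.47 (SE 0.59, adjusted p = 0.00128), and -2.08 for its second feature (adjusted p = 0.000844). The call of the first feature ended with the mixed stages left out (-1.80, adjusted p = 0.0654) and without set 2 (-1.96, adjusted p = 0.0627). That of the second feature also ended without set 2 (-1.92, adjusted p = 0.066).

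For cyclin4, a cyclin and so of the class that times the cell cycle, the early microspore mean differed from the meiotic mean by -0.41 and the mean of the later stages by -2.40. Its early microspore pools averaged 0.46 ± 0.06, below the tetrad mean of 0.75 ± 0.15, and its mid-microspore pools -1.35 ± 0.29 (SD, n = 4 each). The difference between the sides was -1.74 (SE 0.30, adjusted p = 6.26e-05), with microspore pools from -2.13 to 0.52 and meiotic pools from 0.44 to 1.47.

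For pdh2, a subunit of pyruvate dehydrogenase, which feeds carbon into the mitochondrial citric acid cycle, the early microspore mean was 0.32 and the later means -1.34 and -1.92. All 12 microspore pools, from -2.19 to 0.57 with a median of -1.34, lay below all 12 meiotic pools, from 0.73 to 1.26 with a median of 0.93. The difference was -1.96 (SE 0.30, adjusted p = 1.21e-05), and -1.28 for a second feature, also without overlap (adjusted p = 1.64e-05). ec2e, listed with the synonym rpl39 of a large-subunit ribosomal protein, held 0.44 at the early microspore stage and then averaged -1.43 and -1.28 (difference -1.51, adjusted p = 0.000338), while its second feature differed by 0.20 (adjusted p = 0.406).

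The rf2 gene encodes a mitochondrial aldehyde dehydrogenase known as a nuclear restorer of fertility in T-cytoplasm maize. Its 4 features differed by -1.87, -0.93, -0.44 and 0.28, and the first 3 were called (adjusted p = 4.39e-05, 0.00345 and 0.000128), the last not (adjusted p = 0.0859). Its most changed feature had a median of -1.10 in microspore pools, range -2.74 to 0.85, against 0.81, range 0.24 to 1.81, in meiotic pools. The falls of rf2 features thus stood beside the rise of aldh5 within the aldehyde dehydrogenases. Of 18 features of aldehyde and alcohol dehydrogenases, 5 were higher (27.8%) and 3 lower (16.7%), with a median of 0.04. Of all features, 25.3% were higher and 25.6% lower.

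The size of a difference depended on the scan for many of these genes. In 29 of the 30 it was larger in the low than in the high scan, and in 18 of the 30 a single scan moved the fold by over 1.5 times. For SPS the low scan gave 3.89 and the medium and high scans 1.45 each, and for hdz10 they gave -3.46, -1.16 and -1.07. For PP2C24, pdh2, TRAF41, cab-m1 and rbcS the factor was 1.17 or less. No scan turned the direction of any of the 30.

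The gene lists were filled from symbols and synonyms alone, so that they hold part of each family, and several features of a list can share 1 gene. Read against 25.3% of all features higher and 25.6% lower, and a median of 0.01 over all features, the lists divided as follows. The median of no list named with a direction below changed sign in any single scan, in the median of scans or with columns scaled to one spread.

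Ribosomal proteins and translation factors moved mostly down. Of 49 features of 26 genes, 31 were lower in the microspore stages and 5 higher, with a median of -0.44, and 28 and 4 were with the 4 differences as the unit. The rps28 features, of a small-subunit protein, differed by -1.18, -1.12 and -1.07, and the rps6-2 features by -1.13 and -1.04 (largest adjusted p of the 5, 7.36e-06). In 4 of the 5 features of RP-P0, the acidic stalk protein of the large subunit, all microspore pools lay below all meiotic pools, at differences of -0.95 to -0.72. The fifth RP-P0 feature differed by -0.06 (adjusted p = 0.87). The largest step lay between tetrad and early microspore for 28 of the 31 lower features, and the median of the list was lowest at the early microspore stage, at -0.57 against its meiotic mean. Translation genes that rose included elfa3 by 0.66 and rps12 by 0.61.

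**Figure D4:**
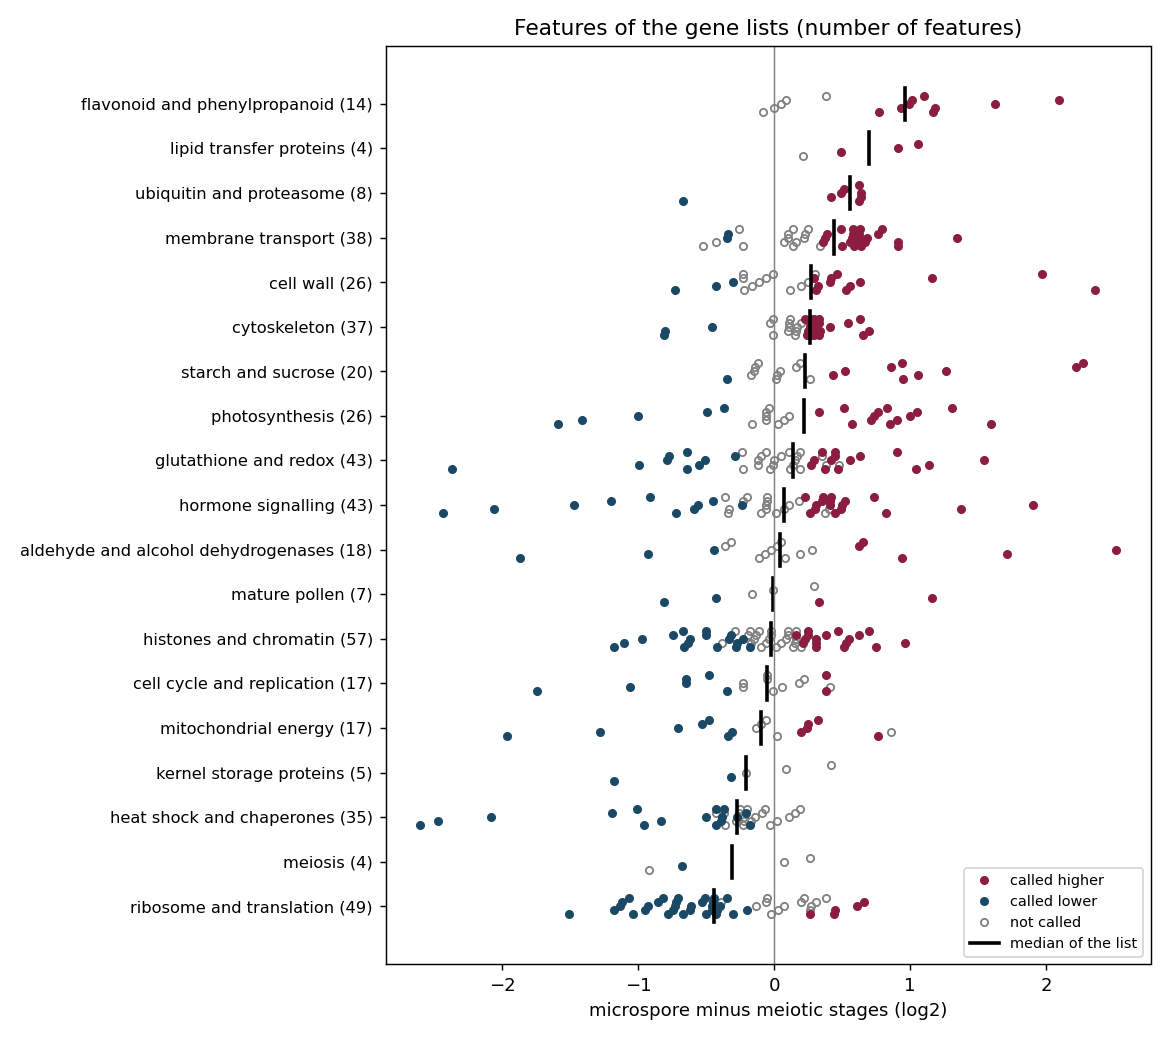
Differences between microspore and meiotic stages on the log2 scale (horizontal axis) for the features of each gene list with more than 3 features (vertical axis, number of features in brackets). Filled points were called, open points were not, and the bar is the median of the list. Flavonoid and phenylpropanoid features have the highest median, 0.96, and ribosome and translation features the lowest, -0.44.

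Heat shock proteins and chaperones had 16 of 35 features lower and 0 higher in the microspore stages, where 25.3% of all features were higher, with a median of -0.27. With the 4 differences as the unit, 10 were lower and 0 higher. The lower ones included hsp101, a disaggregase, at -0.96, hsp18c at -1.19 and hsp18f at -1.01, besides HSP18 and CRH. Of 8 features of hsp70-4, for an Hsp70 chaperone, 1 was called, at -0.43 (adjusted p = 0.0033). The median of the list was -0.36 in upper and -0.11 in lower florets. The list's stage medians were -0.05 at early, -0.17 at mid- and -0.47 at mid/late microspore against the meiotic mean, so that this list moved later than the ribosomal one.

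The flavonoid and phenylpropanoid list had called features in 1 direction alone. Of 14 features of 9 genes, 9 were higher and 0 lower in the microspore stages, with a median of 0.96. The c2 gene, for chalcone synthase, the entry enzyme of flavonoid synthesis, had 3 features higher by 1.18, 1.10 and 1.01, and in the first of these the microspore pools, from 0.12 to 1.04, lay above all meiotic pools, from -1.07 to 0.05. PAL1, for phenylalanine ammonia-lyase, which opens the phenylpropanoid pathway, was higher by 0.99 and 0.93, and BM1, a gene of lignin synthesis, by 1.17. Features of A1, bronze-2, cad1 and CHI differed by -0.08 to 0.09 and were not called. The high scan alone gave a list median of 0.49 and the low scan 1.15.

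**Figure D5:**
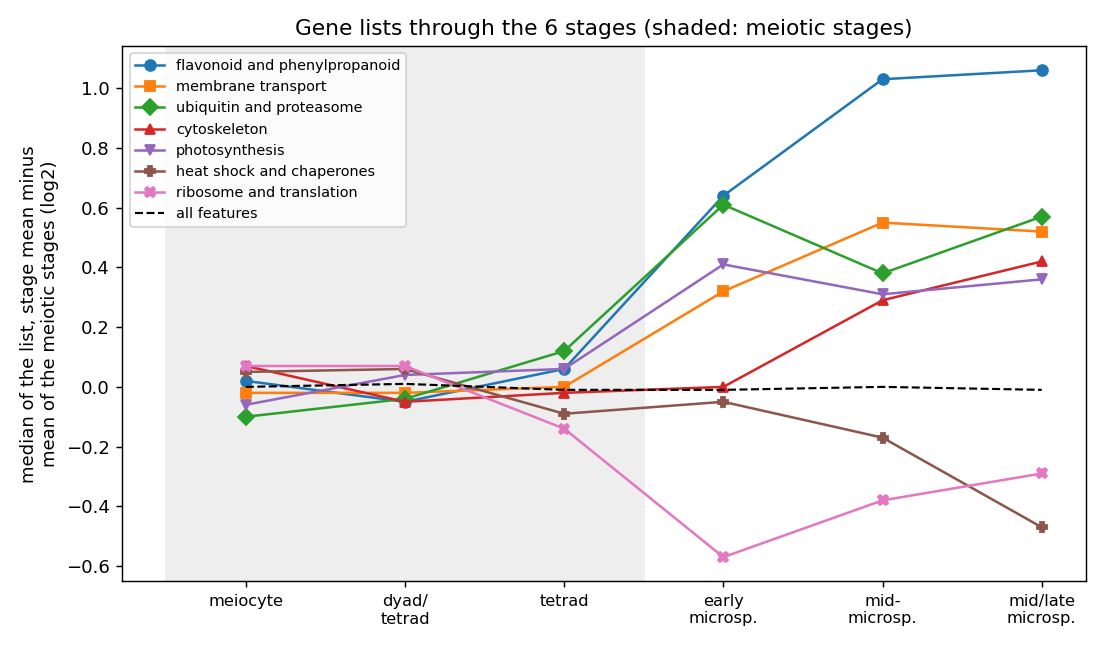
Median of 7 gene lists and of all features (vertical axis, stage mean minus the mean of the meiotic stages, log2) through the 6 stages in order (horizontal axis), with meiotic stages shaded. Ribosome and translation features are lowest at the early microspore stage, -0.57, heat shock and chaperone features at mid/late microspore, -0.47, and cytoskeleton features are at -0.00 at early and 0.42 at mid/late microspore.

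Membrane transport genes were mostly higher, 22 of 38 features against 2 lower, with a median of 0.44. They included the plasma membrane aquaporin PIP1-3, with 3 features higher by 0.67, 0.64 and 0.58 (largest adjusted p = 1.24e-05), 1 of 2 features of the proton pump gene mha4 at 0.91, the other being at 0.07 (adjusted p = 0.435), and 3 features of PMP3 at 0.91, 0.79 and 0.62. HAK1, for a potassium transporter, was higher by 1.34 (adjusted p = 0.00184), but its 4 differences ran from 0.53 to 2.36 and the call ended in lower florets alone (0.61, adjusted p = 0.368), with the mixed stages left out (0.80, adjusted p = 0.12) and without set 2 (1.23, adjusted p = 0.0912).

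Cytoskeletal features were more often called higher than lower, by small amounts. Of 37 features of 15 genes, 22 were higher and 3 lower, with a median of 0.26, and 16 and 3 were with the 4 differences as the unit. The count of higher features was 10 in the high scan alone and 13 with columns scaled to one spread. The tubulin genes tub3 (0.65 and 0.63) and tua6 (0.70) rose most, and the tua6 call ended with the mixed stages left out (adjusted p = 0.111), without set 1 (0.0548) and in upper (0.0539) or lower (0.0501) florets alone. TUBC, listed with synonyms of gamma-tubulin, which nucleates microtubules, fell in both its features. In one of them microspore pools ran from -0.62 to -0.08 and meiotic pools from 0.10 to 0.59 (difference -0.80, adjusted p = 1.66e-08). The step from early to mid-microspore was the largest for 16 of the 22 higher features.

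Starch and sucrose genes had 9 of 20 features higher and 1 lower, with a median of 0.23. All 6 features of ss2 were called higher, by 0.52 to 1.26, but in 5 of them the stage mean peaked at early microspore and came down again. Feature 11138 of ss2 averaged 1.78 at early, 0.09 at mid- and -0.28 at mid/late microspore, and only feature 9109 was highest at mid/late microspore, at 1.36. Among cell wall genes, 12 of 26 features were higher and 3 lower, with a median of 0.27, and 10 and 1 were with the 4 differences as the unit. The cellulose synthase genes CesA-8, CesA-6, CesA-4, CesA-5 and CesA-1 had features higher by 0.31 to 0.63, while a feature of the expansin gene expa2, for a protein that loosens walls, fell, at -0.73 (adjusted p = 1.17e-05). The expansin gene expA3 was called at -0.30 over the pools but not with the 4 differences as the unit (adjusted p = 0.24).

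Lipid transfer proteins, small secreted proteins abundant in anther tissue, were represented by 2 genes. LTP3 had 3 features higher by 1.06, 0.91 and 0.49 (largest adjusted p = 0.000319), each with its largest step between mid- and mid/late microspore, and plt2 differed by 0.21 and was not called. The tapetum list held 1 feature, ms23, for a transcription factor of early tapetum fate, which was higher by 0.52 (SE 0.12, adjusted p = 0.00121). Its call ended with the mixed stages left out (0.31, adjusted p = 0.0707), without set 1 (0.33, adjusted p = 0.112) and in upper florets alone (0.38, adjusted p = 0.131).

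The meiosis list held 4 features, of which 1 was lower and 0 higher. Since the direction of the ratio is not settled, these genes cannot check the meiotic label. afd1, for the meiotic cohesin REC8, differed by 0.07 (SE 0.22, adjusted p = 0.826), with microspore pools from -0.73 to 0.81 and meiotic pools from -0.72 to 0.78. ZYP1, for the central element of the synaptonemal complex, was lower in the microspore stages, at -0.68 (SE 0.25, adjusted p = 0.0255). Its differences were -1.78 and -0.68 in set 1 but 0.02 and -0.27 in set 2, and with the 4 differences as the unit the adjusted p was 0.131, and without set 1 it was 0.786. rad51a, for a strand-exchange recombinase, differed by -0.92 (SE 0.47, adjusted p = 0.107), and adjusted p was 0.0189 with the 4 differences as the unit, and Rad51A2 differed by 0.26 (adjusted p = 0.373). None of the 4 passed both tests.

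Of 17 cell cycle and replication features, 6 were lower and 2 higher. Besides cyclin4, mad2, for a protein of the spindle checkpoint, was lower at -1.06 (SE 0.22, adjusted p = 0.000416), with -1.90 and -1.60 in lower but -0.26 and -0.49 in upper florets of sets 1 and 2. The RNRL2 features, for the large subunit of ribonucleotide reductase, differed by -0.65 and -0.48, the second without overlap, while a PCNA feature, for the replication clamp, was higher by 0.38 (adjusted p = 0.0083). Top1, for a topoisomerase, differed by -0.65 (adjusted p = 0.0234), was not called with the 4 differences as the unit (adjusted p = 0.0857), and was at -0.00 in the low scan.

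Chromatin genes split evenly, with 17 of 57 features higher and 17 lower, and a median of -0.02. The counts were 11 and 16 with the 4 differences as the unit, and 7 and 14 with columns scaled to one spread. The linker histone gene his1a had 6 of 8 features higher, by 0.47 to 0.96, whereas the high mobility group genes HMG5, hmg2 and HMG11 had features lower, at -0.97 to -0.32. MNB1B, also a high mobility group gene, was lower at -1.18, a call that ended without set 2 (adjusted p = 0.0503), and hda106, for a histone deacetylase, had 1 feature lower at -1.10 (adjusted p = 0.000312) and 1 at 0.20 that was not called.

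All 6 features of the polyubiquitin gene MUB14 were higher, by 0.42 to 0.64, and in 3 of them the sides did not overlap. MUB6 was lower, at -0.67 (adjusted p = 0.000171). Each of the 8 ubiquitin features had its largest step between tetrad and early microspore.

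Photosynthesis genes had 13 of 26 features higher and 5 lower, with a median of 0.22. Besides rbcS, the higher ones included psad1 at 0.85 and the antenna proteins cp29 at 0.76 and CAB1 at 0.83. RA, for Rubisco activase, was lower at -1.41 (adjusted p = 0.00117) and cab-m1 at -1.59. The RA call ended with the mixed stages left out (-1.08, adjusted p = 0.0579), without set 2 (-1.18, adjusted p = 0.0681) and in lower florets alone (adjusted p = 0.0572). The 2 features of psaH were both called and went opposite ways.

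In hormone signalling, 17 of 43 features were higher and 10 lower, with a median of 0.07, and 13 and 9 were with the 4 differences as the unit. PP2C18, a relative of PP2C24, was lower at -1.47 (adjusted p = 6.26e-07), while PP2C20 and PP2C23 were higher by 0.50 and 0.41. The lipoxygenase gene lox1 was lower, at -1.20 and -0.45, and lox4 higher by 0.73. Among mitochondrial energy genes, 7 of 17 features were lower and 5 higher, with a median of -0.10, which included both pdh2 features and ANT-G2, for an adenine nucleotide translocator, at -0.71 and -0.53. The glutathione and redox list had 14 of 43 features higher and 9 lower, with a median of 0.14, and catalase1, which breaks down hydrogen peroxide, was higher by 1.04 with microspore pools from 0.38 to 0.66 and meiotic pools from -0.91 to 0.14.

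The mature pollen list of 7 features had 2 higher and 2 lower. PG14, for a polygalacturonase, had features at 1.16, -0.01 and -0.43. The last was called over the pools (adjusted p = 0.00502) but not with the 4 differences as the unit (adjusted p = 0.0716). The profilin gene prf1 was lower at -0.81. The call of the first PG14 feature ended with the mixed stages left out (adjusted p = 0.0582) and in lower florets alone (0.109), and that of prf1 without set 2 (0.0759) and in lower florets alone (0.101). Kernel storage protein genes, of a tissue that was not sampled, had 0 of 5 features higher and 2 lower, and the sign of their median changed between scans. z1A1_2, for a zein, was lower at -1.18 (adjusted p = 0.000518), but not without set 1 (-0.53, adjusted p = 0.149). The z1C1_12 feature was called at -0.32 (adjusted p = 0.0281), but not with the 4 differences as the unit (adjusted p = 0.0528), and was at 0.12 in the low scan.

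The change between the sides was also compared between florets. No feature was called for a difference of the change between upper and lower florets (0 of 12160, 0%), at a smallest adjusted p of 0.054 in the limma interaction of side and floret. At an unadjusted p under 0.05 there were 338 features (2.78%), a share below that threshold. The pool values share slides in this test too, so that its p-values are not exact. A p that misses the threshold does not show that the florets changed alike.

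Repeated features set a limit on reading single spots. Of 467 genes with 2 or more called features, 72 (15.4%) had called features in opposite directions, as gst28 and psaH did. Of the 6192 called features, 2725 had no gene in the annotation used, and the 2 largest rises, 5.52 and 5.04, and the largest fall, -3.75, were among those.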

How the data were processed

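The authors deposited 1 table of normalised ratios of the 2 channels, with 1 value per feature and scan. The unit of these deposited values was read as natural log, since no source states the base: in 48 low scans, distances between values repeated 3 or more times matched 2 times the log of a whole number, within 5e-06, in 63 cases when read as natural logs, against 19 read as log2 and 8 read as log10. Column medians of the deposited values lay between -0.0252 and 0.0327. The sources used here do not give the normalisation software. Spot signals were not analysed.

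After conversion to log2, the median of each scan was subtracted and scans were averaged by slide. Slides between florets were used as deposited, upper over lower, and weigh 0 in the comparison. Least squares within a set gave the pool values (R 4.3.3 with MASS 7.3.60.0.1). They were tested with limma 3.58.1 in a model of side, set and floret (20 residual degrees of freedom), with Benjamini-Hochberg adjustment over 12160 features. Stages within a side were tested in a model of 12 groups plus set. The set number is the pool number of the labels, and a slide joins pools of 1 set, so set was a block. The fits were also run on simulated data with known differences between the sides. Stages within a side were simulated alike, and no result rests on this run. Figures were drawn with matplotlib 3.10.9.

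Of 12160 features, 6412 matched 1 gene, 214 several and 5534 none; 1151 carried a gene name. Symbols and synonyms came from the array annotation and RefSeq (Zm-B73-REFERENCE-NAM-5.0). Named genes were the 15 per direction with the largest change among called features of 1 sign in all 4 combinations of set and floret, and the 3 most changed called features of each list; others named with a list were chosen after their values were seen. Members, lists and rules were chosen with earlier results of these data known. Lists were planned on gene descriptions too, but were matched on names alone, and names of other meaning were taken out. Alternatives were single scans, the median of scans, scaling, floret slides turned or left out, and other models. Others left out the mixed stages, a floret, a set or a pool. In fits of 1 floret or without the mixed stages, the pool values were still those solved from all slides. The 4 differences of set and floret as the unit were added after seeing the data.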

Additional observations from a re-analysis of the deposited data

Results flagged for a closer look

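In the 30 named genes with the largest changes, 180 groups of 4 pools of 1 stage and 30 groups of 4 differences were checked for a value far from the other 3, where chance marks about 1 group in 20. No difference stood apart, and 8 pool values did. The SPS value of the lower floret mid/late microspore pool of set 1 was 1.75, against 2.03 to 2.07 in the other pools of that stage. Amy2 was at -1.27 in the lower floret early microspore pool of set 1, against -0.33 to -0.21. HIT2 was at -0.46 in the upper floret mid-microspore pool of set 2, against -1.32 to -1.18. In meiotic pools, 4CL was at -2.82 in the lower floret meiocyte pool of set 2, against -1.74 to -1.63. The upper floret meiocyte pool of set 1 stood low for rbcS, at -1.76 against -0.93 to -0.91, and for bss1, at -0.88 against -0.19 to -0.16. The bss1 value of the lower floret tetrad pool of set 1 was -1.39, against -0.95 to -0.87. DEF1 was at 1.42 in the lower floret dyad/tetrad pool of set 2, against 0.76 to 0.83. Leaving out the pool in question ended none of these calls. The difference between the sides moved most for Amy2, to 2.61 from a reported 2.22, and for 4CL, to 1.92 from a reported 2.09.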

How the results depend on the processing

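The count of 6192 features between the sides was 3853 in upper and 3252 in lower florets alone, fits on 12 pools each. The pool values of these fits, and of the fit without mixed stages, were solved from all slides of a set. The 2 floret fits are therefore not separate analyses of the florets. The count ranged from 3765 (without set 1) to 6286 when a set or a single pool was left out. It stayed within 1.5 times under the remaining alternatives, from 4313 with the mixed stages left out to 6864 with 12 groups. Without the replicate block for set it was 6332, and the difference between florets then had 3 calls against 0 with it; the block moved no other count by over 1.5 times. That difference had 2 calls in the high scan alone, 3 in the median of scans, 2 with floret slides left out, and 0 to 4 with a pool left out. The count within the microspore side ranged from 2768 to 4213 with a pool left out. That within the meiotic side, 535, was 839 with columns scaled to one spread and 1289 with floret slides turned by the dyes, and ranged from 186 to 555 with a pool left out: 258 without the upper meiocyte pool of set 1, 201 without its upper tetrad pool, 186 without its lower meiocyte pool, 259 without the upper tetrad pool of set 2, 343 without its lower meiocyte pool and 197 without its lower tetrad pool. The causes were not tested. An earlier form of the 4 differences, which used floret slides, was dropped because its differences share slides. For the 30 genes, 1154 of 1170 values kept their direction and call, 16 lost the call and 0 turned; for the other 34 named features, 1247 of 1326 kept both, 78 lost the call and 1 turned, z1C1_12 at 0.12 in the low scan alone (adjusted p = 0.657). Where only some alternatives end a call, those that leave out a set, a floret or the mixed stages also leave fewer pools.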
